A study of Mus musculus with 48 samples.

Results

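Liver transcripts of 10 genes of the oxidative and metal stress defence were followed across genotype and diet. They are *Nqo1*, *Gclc*, *Gclm*, *Hmox1*, *Txnrd1*, *Srxn1* and *Gsr*, which are known targets of the transcription factor Nrf2, the metallothionein genes *Mt1* and *Mt2*, and *Nfe2l2*, which encodes Nrf2 itself. They were found by their gene name among the 37074 names on a mouse Agilent array and are measured by 14 of its 56605 distinct probes. Of these 14 probes, 13 were bright enough to be tested. The remaining one, a second *Hmox1* probe (A_52_P602559), was well above background on 4 of 48 arrays.

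The 48 arrays are 48 livers of male C57Bl6J mice, 8 in each of 6 groups. *WT* mice carried intact *Pparα*, the nuclear receptor for fatty acids. *Pparα* hep-/- mice (LKO in the sample labels) lacked it in hepatocytes through a Cre recombinase under the albumin promoter, so other liver cells kept the gene. *Pparα*-/- mice (KO) lacked it in every cell. Each genotype received a control diet (CTRL) or a high-fat diet (HFD) with 60% fat, and all mice were housed at thermoneutrality and killed in the fed state. By the labels every mouse was 20 weeks old after 12 weeks on its diet, whereas the study's text gives a shorter feeding period. By the study's methods, the *WT* mice were purchased and both mutant lines were bred in house, so the origin of the mice and the genotype cannot be told apart.

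Nrf2 is held in the cytoplasm by Keap1, which directs it to degradation. Oxidants and electrophiles that modify Keap1 release Nrf2, which then enters the nucleus and, paired with a small Maf protein, binds antioxidant response elements of genes for glutathione synthesis, thioredoxin recycling, quinone reduction and haem breakdown. Metallothioneins are small cysteine-rich proteins that bind zinc and copper. Their genes are driven by the zinc-sensing factor MTF-1 at metal response elements, and in the liver also by glucocorticoids and by cytokines of the acute-phase response.

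The promoters of *Mt2*, which held the most matches among the members, and of *Srxn1* are shown whole, the latter because 2 of its 3 matches are of a form added after the sequences had been seen. Promoter entries of RefSeq (GRCm38.p6) were at hand for 7 of the 10 genes, with 9 entries among 32851. *Gclc*, *Gsr* and *Hmox1* had none. The 250 bases before each start were searched on both strands for the antioxidant response element core TGACNNNGC and for the metal response element cores TGCACNC and TGCGCNC. The related form TGAGNNNGC was added after the sequences had been seen. In the following sequences, given 5′ to 3′ on the strand of the gene, capitals mark each match to any of these motifs. A match in the reverse orientation appears as its reverse complement.
Mt2, chr8:94172368-94172617, plus strand: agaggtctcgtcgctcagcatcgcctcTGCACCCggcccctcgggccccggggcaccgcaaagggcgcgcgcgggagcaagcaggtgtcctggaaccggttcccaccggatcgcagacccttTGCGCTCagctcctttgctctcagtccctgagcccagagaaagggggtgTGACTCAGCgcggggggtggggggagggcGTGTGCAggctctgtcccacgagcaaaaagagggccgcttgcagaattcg
Srxn1, chr2:152105274-152105523, plus strand: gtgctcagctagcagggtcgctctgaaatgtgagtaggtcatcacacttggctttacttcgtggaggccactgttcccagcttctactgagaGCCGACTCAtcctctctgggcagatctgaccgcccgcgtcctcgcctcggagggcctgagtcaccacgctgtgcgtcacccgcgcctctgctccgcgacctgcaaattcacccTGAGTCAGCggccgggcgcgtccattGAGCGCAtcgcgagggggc
The *Mt2* promoter held TGACTCAGC 79 to 71 bases before the start, together with 3 metal cores. Those cores began 223, 128 and 50 bases before the start, and no motif overlapped another. The *Srxn1* promoter held the added form as TGAGTCAGC 45 to 37 bases before the start, and again as GCCGACTCA 158 to 150 bases before it.

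For 3 other members the 30 bases around 1 match are shown on the plus strand, which is the strand of these genes, with every match that lies inside the window in capitals.
Mt1, chr8:94179055-94179084: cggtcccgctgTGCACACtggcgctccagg
Gclm, chr3:122245413-122245442: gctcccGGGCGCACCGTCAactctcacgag
Txnrd1, chr10:82859104-82859133: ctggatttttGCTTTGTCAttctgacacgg
*Mt1* held 1 metal core in this window and 2 more within the 50 bases after the listed start, which lies 206 bases inside the outer start of the gene. *Gclm* held an antioxidant core that overlapped 1 of its 2 metal cores, and both run together in these capitals. Its other metal core lies outside the window. *Txnrd1* held an antioxidant core in 1 of its 3 entries, and *Nfe2l2* held TGACTCCGC 240 to 232 bases before its start. The *Nqo1* entry held none of these letters. Among all 32851 promoter entries, 10.2% held TGACNNNGC, 14.4% held TGAGNNNGC and 21.4% held at least 1 metal core. Promoters with 3 or more metal cores, as in *Mt2*, made up 1.26%. These matches are letters in a window and were not tested for binding.

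Values are log2 signals after quantile normalization, and a gene is represented by its brightest tested probe. Levels are compared between mice for one probe and never between genes, because probes differ in brightness for reasons other than abundance. Differences are fitted log2 differences ± SE over groups of 8 mice, and p is limma's moderated p adjusted by the Benjamini-Hochberg method over 33323 probes, with a call at 0.05 or below. The fit weights each array by its agreement with its group over all probes and holds a term for the wash batch. Every member was well above background on all 48 arrays. On the *Ppara* probe, *WT*, *Pparα* hep-/- and *Pparα*-/- mice had medians of 14.54, 14.11 and 13.92 on the CTRL diet and of 15.07, 14.24 and 14.03 on the HFD. Only the groups on the HFD separated *WT* from both mutants without overlap, and whether the probe lies in the deleted part of the gene was not tested. The arrays carried a clear hepatocyte signal, with a median *Alb* signal of 18.90 to 18.93 in the 6 groups and a mean over 6 hepatocyte markers of 17.19 to 17.68 in single mice.

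Most calls on these genes depended on the array weights, which were lowest for 2 CTRL mice. *WT* CTRL replicate 6 had the highest signal of its group for *Nqo1* (9.54), *Srxn1* (14.77), *Gclc* (14.47), *Gsr* (13.33) and *Txnrd1* (13.50), and its array weight was 0.208. *Pparα* hep-/- CTRL replicate 1 had the highest signal of its group for *Nqo1* (9.02), *Srxn1* (13.27), *Gsr* (12.90) and *Txnrd1* (13.09), and its weight was 0.189, the lowest of all arrays, whose weights reached 2.53. Both mice also stood apart in cell type markers. Their mean over 5 cholangiocyte markers, genes of the bile duct lining, was 9.82 and 10.05, against at most 8.31 and 8.00 in the other 7 mice of the same group, and each of the 5 markers was highest in them. The stellate cell marker mean was 10.58 and 10.94, against at most 9.93 and 9.94, and the macrophage marker mean 11.28 and 11.72, against at most 11.15 and 11.10. Their hepatocyte marker mean was the lowest of its group, 17.19 and 17.32. The part of these cells in the high Nrf2 target signals of both mice was not tested.

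*WT* HFD mice also differed widely among themselves. Replicate 2 was highest of its group in the mean of 6 neutrophil markers (10.91) and of 12 acute-phase genes (16.17), and replicate 1 was next for both (9.73 for the neutrophil markers), against at most 7.25 and 14.40 in the other 6 mice. Replicate 6 was highest in the stellate cell (10.98) and macrophage marker means (11.67), where the next mice had 9.77 and 11.17. These 3 mice were also the highest of their group for *Mt1* and *Mt2*, and replicates 2 and 6 for *Hmox1*, and their array weights were 0.537 for replicate 1, 0.343 for replicate 2 and 0.372 for replicate 6. Without replicates 2 and 6, an alternative added after the data had been seen, 34 of 36 calls were kept and 2 were gained. The lost calls were the HFD response of *Mt1* in *WT* mice (adjusted p = 0.0803) and *Gclm* in *Pparα*-/- against *Pparα* hep-/- mice on the CTRL diet (adjusted p = 0.0508), and the gained ones were both of *Hmox1*. With equal weights as well, 11 of 36 were kept. The part of these cells and of the acute-phase response in the *WT* HFD values was not tested.

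Without both CTRL mice, 35 of the 36 calls given here were kept and 6 were gained. With all mice and equal weights for every array, 7 of the 36 were kept. With equal weights and without both CTRL mice, 19 were kept. The 7 calls that held with equal weights were 3 differences of *Gclm* between *Pparα*-/- mice and the others, the HFD response of *Hmox1* in *Pparα*-/- mice, the difference in HFD response of *Txnrd1* between *Pparα*-/- and *WT* mice, and the higher *Mt1* and *Mt2* of *Pparα*-/- mice on the CTRL diet. These calls are marked again beside their values. The share of all probes called fell as well with equal weights, in *Pparα* hep-/- mice from 20.2% to 3.81% for the HFD response.

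**Figure D1:**
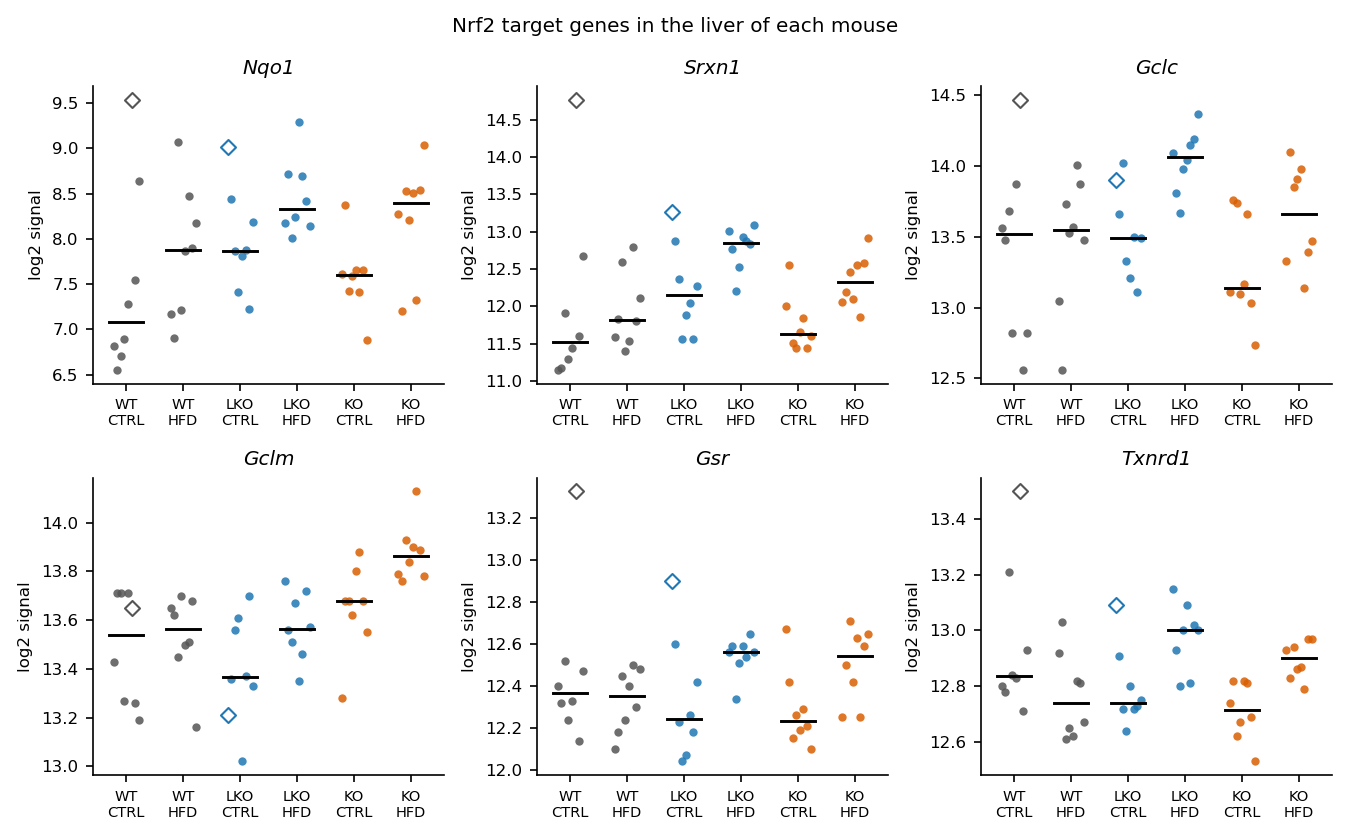
Log2 signal (y axis, quantile normalized) of *Nqo1*, *Srxn1*, *Gclc*, *Gclm*, *Gsr* and *Txnrd1* in each of 48 mice, by genotype and diet (x axis). Points are mice, lines are group medians, and open diamonds are *WT* CTRL replicate 6 and *Pparα* hep-/- CTRL replicate 1. The *WT* CTRL diamond lies at 14.77 in the *Srxn1* panel, above all other mice, and the 8 *Pparα*-/- HFD mice lie above all *WT* HFD mice in the *Gclm* panel.

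More of these genes passed the test for the HFD in the mutants than in *WT* mice, although the responses themselves rarely differed by test. In *WT* mice 2 of the 10 genes rose, *Nqo1* and *Mt1*, where 18.7% of all probes were called in either direction. Neither call was made with slide as a block, with the replicate number as a block, with equal weights, without the filter on dim probes or within either wash batch. The *Pparα* hep-/- mice had 7 that rose, *Nqo1*, *Gclc*, *Txnrd1*, *Srxn1*, *Gsr*, *Mt1* and *Mt2*, where 20.2% of all probes were called. Among *Pparα*-/- mice 6 rose, *Nqo1*, *Gclm*, *Hmox1*, *Txnrd1*, *Srxn1* and *Gsr*, where 24.8% were called. With equal weights 0 of 10 were called by limma in *Pparα* hep-/- mice (3 at an unadjusted p under 0.05) and 1 in *Pparα*-/- mice, and without the filter on dim probes 5 and 2. Within the first wash batch limma called 2 and 0 (5 and 5 at an unadjusted p under 0.05), and within the second 0 and 1 (7 and 5). No member fell with the HFD by the test on its brightest probe, but with the mean of both its probes *Txnrd1* fell in *WT* mice (-0.23 ± 0.08, adjusted p = 0.0397). When each mouse was left out in turn, these counts ranged from 0 to 3 in *WT*, 5 to 7 in *Pparα* hep-/- and 3 to 7 in *Pparα*-/- mice. The last was 3 without *Pparα*-/- CTRL replicate 7 or 8 or *Pparα*-/- HFD replicate 8. The median log2 difference over the 10 genes was 0.26, 0.45 and 0.46 in these genotypes, and the median over all probes was -0.01, -0.01 and -0.02. Responses were then compared between genotypes. Their difference was called for 1 of 10 genes between *Pparα* hep-/- and *WT* mice, where 10.4% of all probes were called, and for 1 of 10 between *Pparα*-/- and *WT* mice, where 14.3% were called. Both calls were for *Txnrd1*. Between *Pparα*-/- and *Pparα* hep-/- mice 0 of 10 members were called by limma and 0 had an unadjusted p under 0.05, where 3.42% of all probes were called.

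Between genotypes, 5 calls were made on the CTRL diet and 14 on the HFD. With the CTRL diet, *Pparα* hep-/- mice exceeded *WT* mice for 2 of 10 genes (*Hmox1* and *Mt1*), where 24.7% of all probes were called. Without *WT* CTRL replicate 6 that count was 5, with *Nqo1*, *Srxn1* and *Mt2* added, and without *WT* CTRL replicate 1 or *Pparα* hep-/- CTRL replicate 8 it was 0. Also 2 were higher in *Pparα*-/- than in *WT* mice (*Mt1* and *Mt2*), where 34.2% were called, and 4 genes were called, in either direction, without *Pparα*-/- CTRL replicate 4. *Gclm* alone was higher in *Pparα*-/- than in *Pparα* hep-/- mice, where 25.2% were called. On the HFD *Pparα* hep-/- mice exceeded *WT* mice for 6 genes (*Nqo1*, *Gclc*, *Txnrd1*, *Srxn1*, *Mt1* and *Mt2*), where 26.7% of all probes were called. Between *Pparα*-/- and *WT* mice 6 genes were higher (*Gclm*, *Hmox1*, *Txnrd1*, *Srxn1*, *Mt1* and *Mt2*), where 45.7% of all probes were called. *Gclm* was higher and *Gclc* lower in *Pparα*-/- than in *Pparα* hep-/- mice on the HFD, where 30.6% were called. When each mouse was left out in turn, these 3 counts ranged from 3 to 7, 5 to 7 and 1 to 3, and 3 was reached without *Pparα* hep-/- HFD replicate 6 for *Pparα* hep-/- against *WT* mice. The 3 diet comparisons and the 6 genotype comparisons share groups, so these counts are not independent of each other. All 36 calls had the same sign within each of both wash batches. They were chosen from the fit to these same mice, so the shared sign is no separate test. Within the first and the second wash batch, 6 and 11 of them were called.

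*Srxn1*, which encodes sulfiredoxin, the enzyme that restores over-oxidised peroxiredoxins, had the smallest adjusted p of the 10 genes for the difference between *Pparα* hep-/- and *WT* mice on the HFD. Its signal in *WT* mice had a lowest, median and highest value of 11.15, 11.53 and 14.77 on the CTRL diet and 11.41, 11.81 and 12.80 on the HFD. The *Pparα* hep-/- values were 11.56, 12.15 and 13.27 on the CTRL diet and 12.21, 12.85 and 13.09 on the HFD. The *Pparα*-/- values were 11.44, 11.63 and 12.56 on the CTRL diet and 11.86, 12.33 and 12.91 on the HFD. The groups overlapped in every comparison, but all 8 *Pparα* hep-/- HFD mice lay above the *WT* HFD mean. There *Srxn1* was higher by 0.92 ± 0.20 (1.90-fold, adjusted p = 5.31e-04), with 0.95 and 0.84 within the first and the second wash batch. It was higher by 0.49 ± 0.20 in *Pparα*-/- than in *WT* mice on the HFD (adjusted p = 0.0389). That call was lost with equal weights, with slide as a block, without the wash term, with the processed signal and without the filter on dim probes. It was also lost with the authors' deposited values and within the first wash batch. Leaving out any 1 of 8 mice ended it as well, *WT* HFD replicates 1, 4, 5 and 7 and *Pparα*-/- HFD replicates 3, 5, 7 and 8, with adjusted p up to 0.127. The HFD raised *Srxn1* by 0.78 ± 0.19 in *Pparα* hep-/- (adjusted p = 0.00338) and by 0.65 ± 0.20 in *Pparα*-/- mice (adjusted p = 0.0145). For *WT* mice the difference was 0.27 ± 0.23 (adjusted p = 0.469), and with equal weights -0.05 (adjusted p = 0.953), since the unweighted means were 12.00 on the CTRL diet and 11.96 on the HFD. The responses of *Pparα* hep-/- and *WT* mice differed by 0.51, with a 95% interval of -0.08 to 1.10 (adjusted p = 0.276), so a difference between them was not shown.

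*Nqo1*, the quinone reductase often read as a gauge of Nrf2 activity, was the only one of these 10 genes called for the HFD in all 3 genotypes, although its *WT* call was lost with slide or with the replicate number as a block. Its lowest, median and highest signal in *WT* mice was 6.55, 7.09 and 9.54 on the CTRL diet and 6.90, 7.88 and 9.07 on the HFD. In *Pparα* hep-/- mice it was 7.22, 7.87 and 9.02 on the CTRL diet and 8.01, 8.33 and 9.29 on the HFD. In *Pparα*-/- mice it was 6.88, 7.60 and 8.37 on the CTRL diet and 7.20, 8.40 and 9.04 on the HFD. The ranges overlapped throughout, and the *WT* CTRL range was stretched by replicate 6. The HFD response was 0.76 ± 0.26 in *WT* (adjusted p = 0.0308), 0.78 ± 0.22 in *Pparα* hep-/- (adjusted p = 0.00892) and 0.73 ± 0.23 in *Pparα*-/- mice (adjusted p = 0.0154), which is 1.69-fold, 1.71-fold and 1.65-fold. The 3 responses lay close together, yet the interval of the difference between *Pparα* hep-/- and *WT* mice reached from -0.64 to 0.68. The unweighted group means of *WT* mice were 7.50 and 7.84, nearer to each other than the fitted values. The *WT* call was lost without any 1 of *WT* CTRL replicates 1, 2, 3 and 5 and *WT* HFD replicates 3, 6, 7 and 8 (adjusted p up to 0.119), and that of *Pparα*-/- mice without *Pparα*-/- CTRL replicate 6 (adjusted p = 0.0521). On the HFD *Nqo1* in *Pparα* hep-/- mice exceeded the *WT* signal by 0.61 ± 0.22 (adjusted p = 0.0392). Leaving out any 1 of *WT* HFD replicates 1, 2, 4, 5 and 8 and *Pparα* hep-/- HFD replicates 5, 6 and 7 ended this call (adjusted p up to 0.105).

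Both subunits of glutamate-cysteine ligase, the first enzyme of glutathione synthesis, were measured, and on the HFD their medians were highest in different mutants. *Gclc*, the catalytic subunit, had a lowest, median and highest signal of 13.11, 13.50 and 14.02 in *Pparα* hep-/- CTRL mice and of 13.67, 14.06 and 14.37 in *Pparα* hep-/- HFD mice. The *WT* values were 12.56, 13.52 and 14.47 on the CTRL diet and 12.56, 13.55 and 14.01 on the HFD. The *Pparα*-/- values were 12.74, 13.14 and 13.76 on the CTRL diet and 13.14, 13.66 and 14.10 on the HFD. *Gclc* was thus highest in *Pparα* hep-/- mice on the HFD, with all 8 of them above the *WT* HFD mean. It rose by 0.57 ± 0.16 with the HFD in *Pparα* hep-/- mice (1.48-fold, adjusted p = 0.00823), against 0.25 ± 0.19 in *WT* (adjusted p = 0.393) and 0.36 ± 0.16 in *Pparα*-/- mice (adjusted p = 0.101). On the HFD *Pparα* hep-/- mice exceeded *WT* mice by 0.49 ± 0.16 (adjusted p = 0.0227). The *Pparα*-/- mice differed from *Pparα* hep-/- mice there by -0.43 ± 0.15 (adjusted p = 0.0264). The first of these calls was lost with equal weights (adjusted p = 0.0789), with slide or the replicate number as a block, and without *Pparα* hep-/- HFD replicate 6 or *WT* HFD replicate 8 (adjusted p up to 0.0642), the second without any 1 of *Pparα* hep-/- HFD replicates 6, 7 and 8 and *Pparα*-/- HFD replicates 1, 6, 7 and 8 (adjusted p up to 0.112).

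*Gclm*, the modifier subunit that raises the efficiency of the ligase, was instead highest in *Pparα*-/- mice. Its lowest, median and highest signal in *Pparα*-/- mice was 13.28, 13.68 and 13.88 on the CTRL diet and 13.76, 13.87 and 14.13 on the HFD. On the HFD it was 13.16, 13.57 and 13.70 in *WT* mice and 13.35, 13.57 and 13.76 in *Pparα* hep-/- mice. It was, on the CTRL diet, 13.19, 13.54 and 13.71 in *WT* and 13.02, 13.36 and 13.70 in *Pparα* hep-/- mice. The *Pparα*-/- HFD mice did not overlap either other HFD group, which held for no other member's main probe in any comparison. Of all probes, 6.93% separated *Pparα*-/- from *WT* mice on the HFD without overlap and 6.55% separated *Pparα*-/- from *Pparα* hep-/- mice. The difference was small, 0.38 ± 0.08 from *WT* mice (1.30-fold, adjusted p = 7.95e-05) and 0.34 ± 0.07 from *Pparα* hep-/- mice (1.26-fold, adjusted p = 3.01e-04). Both calls held without each of the 48 mice in turn and with equal weights (adjusted p = 0.00119 and 0.00406). Within the first and the second wash batch the difference from *WT* mice was 0.23 and 0.51. Both calls, from *WT* and from *Pparα* hep-/- mice, were lost within the first wash batch. On the CTRL diet *Gclm* in *Pparα*-/- mice exceeded the *Pparα* hep-/- signal by 0.22 ± 0.08 (adjusted p = 0.0433), which held with equal weights (adjusted p = 0.0413) but not with slide or the replicate number as a block, with median centring, with the processed signal, without the filter on dim probes, without both low-weight CTRL mice or without *WT* HFD replicates 2 and 6. Within the first and the second wash batch it was 0.05 and 0.31, neither called. It was also lost without any 1 of *Pparα*-/- CTRL replicates 2, 5 and 6 and *Pparα* hep-/- CTRL replicates 1, 2, 5, 6 and 8 (adjusted p up to 0.277). The HFD response of *Gclm* in *Pparα*-/- mice was 0.22 ± 0.08 (adjusted p = 0.0356), lost without any 1 of *Pparα*-/- CTRL replicates 1, 4, 7 and 8 and *Pparα*-/- HFD replicates 5, 6, 7 and 8 (adjusted p up to 0.112). This HFD call was also lost with equal weights, without the wash term, with the processed signal and with median centring. It was not made without the filter on dim probes or within either wash batch.

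The other 2 reductases that keep thiols reduced moved by small amounts, and *Txnrd1*, cytosolic thioredoxin reductase, was the one of the 10 members whose HFD response differed by genotype in the test. Its lowest, median and highest signal in *WT* mice was 12.71, 12.84 and 13.50 on the CTRL diet and 12.61, 12.74 and 13.03 on the HFD. The *Pparα* hep-/- values were 12.64, 12.74 and 13.09 on the CTRL diet and 12.80, 13.00 and 13.15 on the HFD. The *Pparα*-/- values were 12.53, 12.72 and 12.82 on the CTRL diet and 12.79, 12.90 and 12.97 on the HFD. The medians thus went down with the HFD in *WT* mice and up in both mutants, with overlapping ranges. The fitted response was -0.17 ± 0.07 in *WT* mice, which missed the threshold (adjusted p = 0.0872) but passed it with the mean of both probes, 0.20 ± 0.06 in *Pparα* hep-/- (adjusted p = 0.0112) and 0.19 ± 0.06 in *Pparα*-/- mice (adjusted p = 0.0214). The response of *Pparα* hep-/- mice exceeded that of *WT* mice by 0.37, with a 95% interval of 0.19 to 0.55 (adjusted p = 0.00717), and that of *Pparα*-/- mice by 0.35, with an interval of 0.17 to 0.53 (adjusted p = 0.00794). Both differences held without each mouse in turn, and the second also with equal weights (adjusted p = 0.0429). Within the wash batches they were 0.50 and 0.28 for *Pparα* hep-/-, and 0.37 and 0.33 for *Pparα*-/- mice. On the HFD *Txnrd1* was higher than in *WT* mice by 0.24 ± 0.06 in *Pparα* hep-/- (adjusted p = 0.00258) and by 0.19 ± 0.06 in *Pparα*-/- mice (adjusted p = 0.00823). Both of these calls were lost with equal weights and within the first wash batch. The *Pparα*-/- call was also lost with the processed signal, with median centring and with the mean of both probes. Over the alternatives the *Pparα*-/- difference went down to 0.05. On the CTRL diet *Pparα*-/- mice differed from *WT* mice in *Txnrd1* by -0.16 ± 0.07 (adjusted p = 0.0686), and the gene was called lower there under 4 alternatives, among them by -0.24 ± 0.08 with equal weights (adjusted p = 0.0170), -0.20 ± 0.06 with the processed signal (adjusted p = 0.0109) and -0.19 ± 0.07 with median centring (adjusted p = 0.0197). The HFD response in *Pparα* hep-/- mice was lost without *Pparα* hep-/- CTRL replicate 4 (adjusted p = 0.0565), and that in *Pparα*-/- mice without any 1 of *Pparα*-/- CTRL replicates 4, 7 and 8 and *Pparα*-/- HFD replicates 7 and 8 (adjusted p up to 0.0642). Both rises also lost their call with equal weights, with the processed signal and within either wash batch. Median centring ended the *Pparα* hep-/- call as well. The *Pparα*-/- call was not made without the filter on dim probes or with the mean of both probes. Across the alternatives the smallest rise was 0.10 for *Pparα* hep-/- mice and 0.09 for *Pparα*-/- mice. A second *Txnrd1* probe (A_55_P2740574) gave 0.53 ± 0.16 for the difference between *Pparα* hep-/- and *WT* responses (adjusted p = 0.0254) and 0.34 ± 0.16 for that between *Pparα*-/- and *WT* responses (adjusted p = 0.150). On that probe the rise in the mutants was not called, at 0.23 ± 0.10 in *Pparα* hep-/- (adjusted p = 0.0936) and 0.04 ± 0.11 in *Pparα*-/- mice (adjusted p = 0.801).

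*Gsr*, glutathione reductase, had group medians of 12.37 and 12.35 in *WT*, 12.24 and 12.56 in *Pparα* hep-/-, and 12.24 and 12.54 in *Pparα*-/- mice, on the CTRL diet and the HFD. Single mice ranged from 12.04 to 13.33, the latter in *WT* CTRL replicate 6, and all groups overlapped. It rose with the HFD by 0.29 ± 0.08 in *Pparα* hep-/- (adjusted p = 0.00634) and by 0.24 ± 0.08 in *Pparα*-/- mice (adjusted p = 0.0276), and its difference in *WT* mice was -0.02 ± 0.09 (adjusted p = 0.916). The *Pparα*-/- call was lost without any 1 of *Pparα*-/- CTRL replicates 6, 7 and 8 and *Pparα*-/- HFD replicates 3 and 8 (adjusted p up to 0.0741). The responses of *Pparα* hep-/- and *WT* mice differed by 0.31, with an interval of 0.08 to 0.55, which did not pass the adjusted threshold (adjusted p = 0.0852).

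**Figure D2:**
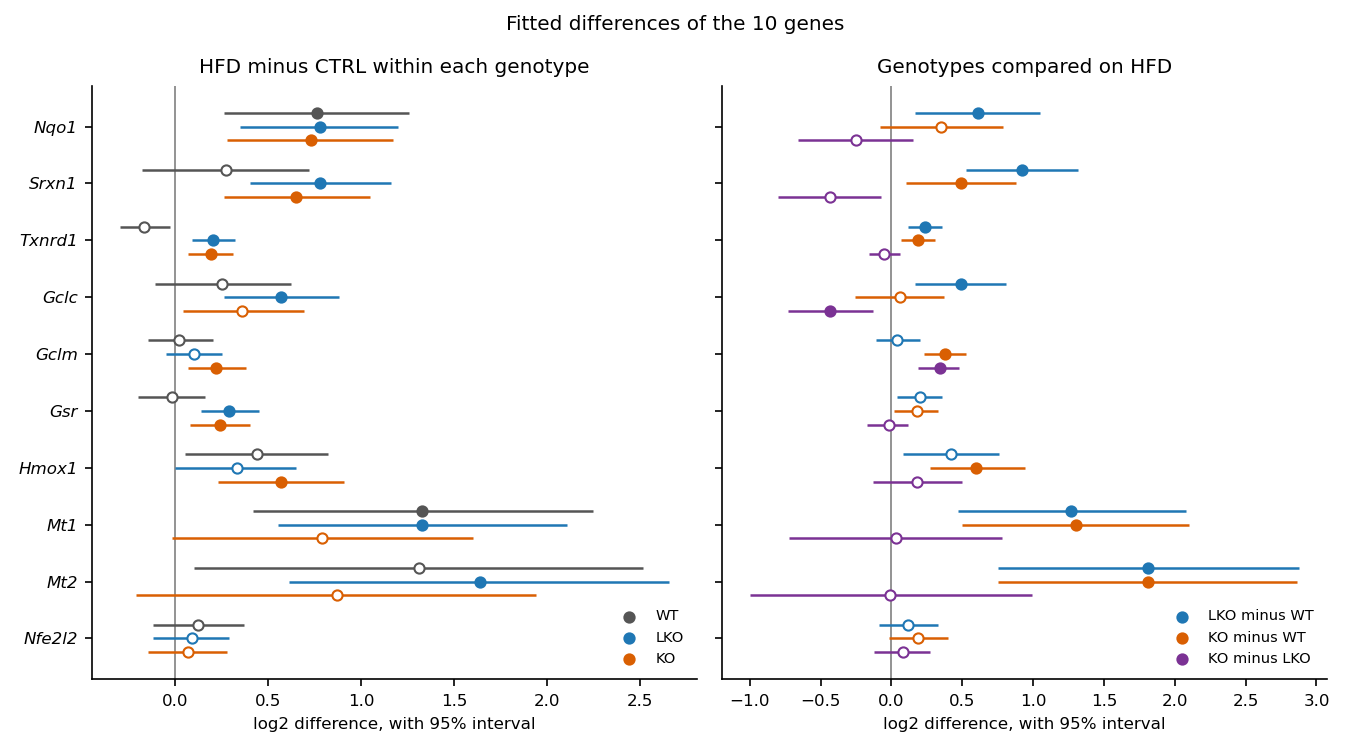
Fitted log2 differences (x axis) with 95% intervals for the 10 genes (y axis), for the HFD against the CTRL diet in each genotype and for the genotypes on the HFD. Filled points passed an adjusted p of 0.05. The intervals of *Mt1* and *Mt2* are the widest, and the *Gclm* difference between *Pparα*-/- and *WT* mice on the HFD, 0.38, has an interval of 0.23 to 0.53.

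*Hmox1*, haem oxygenase, which opens the haem ring, is expressed in liver mainly by macrophages that clear red blood cells, besides being an Nrf2 target. Its lowest, median and highest signal in *WT* mice was 10.23, 11.00 and 11.31 on the CTRL diet and 10.49, 11.19 and 12.52 on the HFD. In *Pparα* hep-/- mice it was 11.09, 11.28 and 11.82 on the CTRL diet and 11.39, 11.66 and 12.05 on the HFD. In *Pparα*-/- mice it was 10.62, 11.07 and 11.90 on the CTRL diet and 11.52, 11.75 and 12.57 on the HFD. *WT* HFD replicates 2 and 6, both at 12.52, stood close to the highest *Pparα*-/- HFD mouse. The HFD raised *Hmox1* in *Pparα*-/- mice by 0.57 ± 0.17 (1.48-fold, adjusted p = 0.0138), also with equal weights (adjusted p = 0.0303). The response was 0.44 ± 0.20 in *WT* (adjusted p = 0.118) and 0.33 ± 0.17 in *Pparα* hep-/- mice (adjusted p = 0.161). On the HFD *Pparα*-/- mice exceeded *WT* mice by 0.60 ± 0.17 (adjusted p = 0.00352), with 0.89 and 0.37 within the wash batches. On the CTRL diet *Pparα* hep-/- mice exceeded *WT* mice by 0.53 ± 0.19 (adjusted p = 0.0349). That call was lost without any 1 of *WT* CTRL replicates 1, 3 and 7 and *Pparα* hep-/- CTRL replicates 2, 3, 5 and 8 (adjusted p up to 0.0846).

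Macrophage markers moved beside *Hmox1*. Of 13 markers of Kupffer cells and macrophages, 0 were called by limma with the HFD in *WT* mice and 0 had an unadjusted p under 0.05, whereas 7 rose in *Pparα* hep-/- and 11 rose in *Pparα*-/- mice, with 12 of 13 higher in *Pparα*-/- than in *WT* mice on the HFD, where 45.7% of all probes were called. For this and each later list, the shares of all probes called with the HFD were 18.7%, 20.2% and 24.8% for *WT*, *Pparα* hep-/- and *Pparα*-/- mice. Between *Pparα* hep-/- and *WT* mice on the HFD, where *Srxn1*, *Nqo1* and *Gclc* were called and *Hmox1* was not (adjusted p = 0.0648, or 0.01 with a difference of 0.55 ± 0.16 without *WT* HFD replicates 2 and 6), 10 of the 13 were higher, as were 6 of 7 stellate cell markers, against 26.7% of all probes called. The phagocyte markers *Cd68* and *Trem2* rose by 1.17 ± 0.22 (adjusted p = 1.84e-04) and 1.84 ± 0.45 (adjusted p = 0.00229) with the HFD in *Pparα*-/- mice. The mean log2 signal of the 13 markers ranged from 9.65 to 11.28 in *WT* CTRL, 9.24 to 11.67 in *WT* HFD, 10.34 to 11.72 in *Pparα* hep-/- CTRL, 10.85 to 11.95 in *Pparα* hep-/- HFD, 10.08 to 11.61 in *Pparα*-/- CTRL and 11.02 to 12.01 in *Pparα*-/- HFD mice. *Gpnmb* was the one marker not above background on most *WT* arrays. Over the 48 mice, after removal of the wash batch mean, the correlation with this marker mean was 0.749 for *Hmox1*, 0.673 for *Srxn1*, 0.659 for *Nqo1* and 0.25 for *Gclm*, and within groups 0.631, 0.691, 0.596 and -0.156. The part of macrophages in these differences was not tested, and in whole liver more cells of a type and more RNA per cell cannot be told apart. Of 7 stellate cell markers, 4 rose with the HFD in *Pparα* hep-/- and 6 in *Pparα*-/- mice, and 0 were called in *WT* mice, with 0 at an unadjusted p under 0.05.

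**Figure D3:**
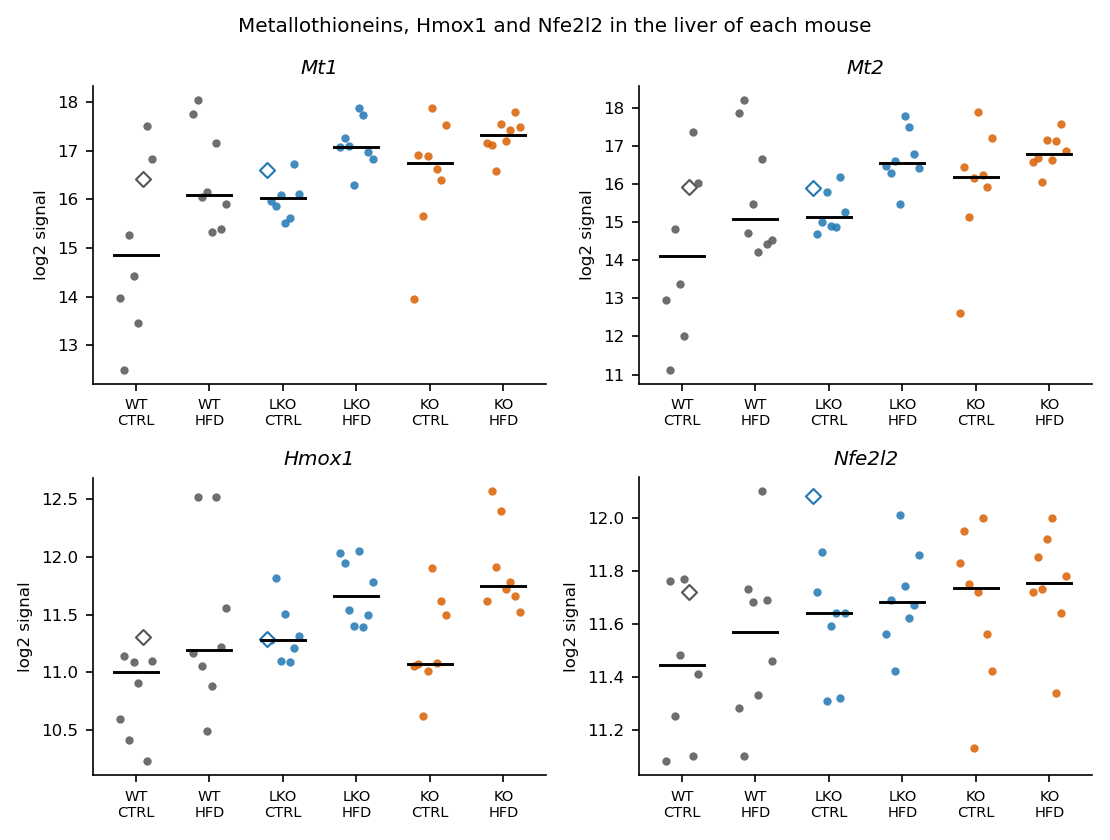
Log2 signal (y axis, quantile normalized) of *Mt1*, *Mt2*, *Hmox1* and *Nfe2l2* in each of 48 mice by genotype and diet (x axis). Points are mice, lines are group medians, and open diamonds are *WT* CTRL replicate 6 and *Pparα* hep-/- CTRL replicate 1. *Mt1* spans 12.49 to 17.50 among *WT* CTRL mice, whereas the 8 *Pparα*-/- HFD mice lie between 16.59 and 17.79.

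The metallothioneins had the largest changes of the 10 genes and the largest spread between mice. *Mt1* had a lowest, median and highest signal of 12.49, 14.85 and 17.50 in *WT* CTRL and 15.32, 16.09 and 18.05 in *WT* HFD mice. In *Pparα* hep-/- mice it was 15.52, 16.02 and 16.72 on the CTRL diet and 16.30, 17.08 and 17.88 on the HFD. In *Pparα*-/- mice it was 13.94, 16.75 and 17.88 on the CTRL diet and 16.59, 17.31 and 17.79 on the HFD. The *WT* CTRL mice were spread most widely, and their highest mouse lay within the range of the mutants on the HFD. On the CTRL diet *Pparα*-/- mice exceeded *WT* mice in *Mt1* by 1.85 ± 0.47 (3.60-fold, adjusted p = 0.00192), and *Pparα* hep-/- mice did so by 1.28 ± 0.45 (2.42-fold, adjusted p = 0.0335). The first call held with equal weights at 1.44 (adjusted p = 0.0244) and without each mouse in turn, but the wash batches gave 2.52 and 0.84, the latter not called (adjusted p = 0.459). The second was lost with equal weights, at 1.01 (adjusted p = 0.169), with the replicate number as a block and without any 1 of *Pparα* hep-/- CTRL replicates 4, 7 and 8 and *WT* CTRL replicates 1, 2 and 5 (adjusted p up to 0.183). On the HFD *Mt1* was higher by 1.30 ± 0.41 in *Pparα*-/- (adjusted p = 0.00788) and by 1.27 ± 0.41 in *Pparα* hep-/- than in *WT* mice (adjusted p = 0.0179), the latter lost without *WT* HFD replicate 5 or 7 or *Pparα* hep-/- HFD replicate 6 (adjusted p up to 0.0765). With equal weights both HFD differences shrank, to 0.82 and 0.68, and neither was called (adjusted p = 0.216 and 0.435).

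The HFD raised *Mt1* in *WT* mice by 1.33 ± 0.47 (2.52-fold, adjusted p = 0.0389). The *Pparα* hep-/- response was 1.33 ± 0.40 (2.51-fold, adjusted p = 0.0140). In *Pparα*-/- mice, already high on the CTRL diet, the difference was 0.79 ± 0.41 (adjusted p = 0.163), and the interval of the difference between *Pparα*-/- and *WT* responses was -1.77 to 0.68. All 8 HFD mice lay above the CTRL mean in each of these genotypes. The *WT* call was lost without any 1 of 11 mice, *WT* CTRL replicates 1 to 5 and *WT* HFD replicates 1, 2, 3, 4, 6 and 8, with adjusted p up to 0.205. The *Pparα* hep-/- call was lost without *Pparα* hep-/- HFD replicate 6 (adjusted p = 0.0650). Within the first and the second wash batch the response was 1.66 and 0.60 in *WT*, and 0.47 and 1.87 in *Pparα* hep-/- mice. A second, dimmer *Mt1* probe (A_52_P423810), designed to a predicted transcript, gave larger differences in some comparisons. On it, *Mt1* in *Pparα*-/- mice exceeded the *WT* signal on the CTRL diet by 3.58 ± 0.53 (12.0-fold, adjusted p = 4.84e-07), and the HFD response of *WT* mice was 2.01 ± 0.52 (adjusted p = 0.00468). Its HFD response in *Pparα*-/- mice was smaller than on the main probe, at 0.43 ± 0.46 (adjusted p = 0.539).

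*Mt2* followed *Mt1* from mouse to mouse, with a correlation of 0.988 over the 48 mice and 0.985 within groups. Both genes lie side by side on chromosome 8. The lowest, median and highest *Mt2* signal was 11.12, 14.10 and 17.37 in *WT* CTRL and 14.22, 15.09 and 18.21 in *WT* HFD mice. Among *Pparα* hep-/- mice it was 14.68, 15.13 and 16.19 on the CTRL diet and 15.48, 16.54 and 17.79 on the HFD. Among *Pparα*-/- mice it was 12.62, 16.19 and 17.87 on the CTRL diet and 16.05, 16.77 and 17.58 on the HFD. Extreme mice were shared, with *WT* HFD replicate 2 highest and *Pparα*-/- CTRL replicate 1 lowest of its group for both genes. On the CTRL diet *Pparα*-/- mice exceeded *WT* mice in *Mt2* by 2.25 ± 0.63 (4.75-fold, adjusted p = 0.00413). With equal weights this was 1.75 (adjusted p = 0.0371), and the call held without each mouse in turn. Within the wash batches it was 2.96 and 1.03, the latter not called (adjusted p = 0.498). On the HFD it was higher than in *WT* mice by 1.81 ± 0.54 in both *Pparα*-/- (3.50-fold, adjusted p = 0.00534) and *Pparα* hep-/- mice (3.51-fold, adjusted p = 0.0108), the latter lost without *Pparα* hep-/- HFD replicate 6 (adjusted p = 0.0523). With equal weights these differences were 1.07 and 0.89 and neither was called (adjusted p = 0.219 and 0.436). The 3 highest *WT* HFD mice for *Mt2*, replicates 1, 2 and 6 at 17.85, 18.21 and 16.65, were the ones with the lowest array weights of their group. The HFD response was called in *Pparα* hep-/- mice, at 1.64 ± 0.52 (3.11-fold, adjusted p = 0.0220), with 0.43 and 2.45 within the wash batches. It was lost without *Pparα* hep-/- HFD replicate 5 or 6 (adjusted p up to 0.105). In *WT* mice the response was 1.31 ± 0.62 (adjusted p = 0.141) and in *Pparα*-/- mice 0.87 ± 0.55 (adjusted p = 0.255).

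**Figure D4:**
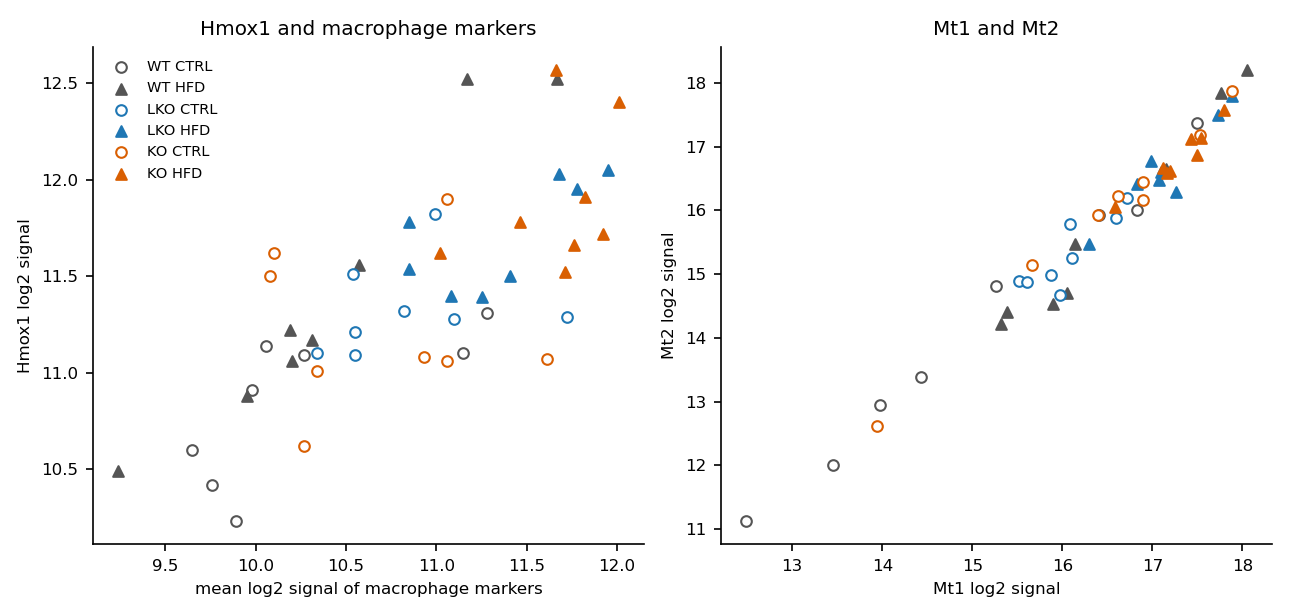
Log2 signal of *Hmox1* (y axis) against the mean log2 signal of 13 macrophage markers (x axis), and of *Mt2* (y axis) against *Mt1* (x axis), in each of 48 mice, coloured by group. *Hmox1* goes with the marker mean at a correlation of 0.749 and *Mt2* goes with *Mt1* at 0.988, both after removal of the wash batch mean.

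Acute-phase genes and genes of zinc and copper handling were compared with the metallothioneins. Of 12 acute-phase genes, 7 rose and 1 fell with the HFD in *Pparα* hep-/- mice, 1 rose and 2 fell in *WT*, and 3 rose in *Pparα*-/- mice. On the CTRL diet 4 of 12 were higher in *Pparα*-/- than in *WT* mice, where 34.2% of all probes were called. *Lcn2*, the iron-trapping lipocalin, rose by 3.19 ± 0.59 with the HFD in *Pparα* hep-/- mice (adjusted p = 1.50e-04) and was higher by 3.19 ± 0.71 in *Pparα*-/- than in *WT* mice on the CTRL diet (adjusted p = 3.74e-04). The mean of the 12 genes ranged from 12.83 to 14.82 in *WT* CTRL, 13.15 to 16.17 in *WT* HFD, 12.94 to 13.78 in *Pparα* hep-/- CTRL, 13.74 to 15.00 in *Pparα* hep-/- HFD, 13.13 to 14.78 in *Pparα*-/- CTRL and 14.23 to 14.85 in *Pparα*-/- HFD mice. Its correlation with *Mt2* was 0.70 over 48 mice and 0.671 within groups, against 0.319 and 0.229 for the mean of 8 glucocorticoid-responsive genes. The correlation of *Mt2* with the mean of 6 neutrophil markers was 0.573 and within groups 0.539, and with the macrophage marker mean 0.509 and 0.286. Of those 8 genes, 0 were called by limma with the HFD in *WT* mice (1 at an unadjusted p under 0.05), 1 rose in *Pparα* hep-/-, and 1 rose and 1 fell in *Pparα*-/- mice. Among 10 genes of zinc and copper handling, 2 fell in *WT*, 1 rose and 1 fell in *Pparα* hep-/-, and 1 fell in *Pparα*-/- mice. The plasma membrane zinc importer *Slc39a4* rose by 1.94 ± 0.21 with the HFD in *Pparα* hep-/- mice (adjusted p = 1.12e-08) and was higher by 1.63 ± 0.25 in *Pparα*-/- than in *WT* mice on the CTRL diet (adjusted p = 8.98e-07). It did not go with *Mt1* in other comparisons, since it differed by 0.31 ± 0.24 with the HFD in *WT* mice (adjusted p = 0.429) and by -0.73 ± 0.24 between *Pparα* hep-/- and *WT* mice on the CTRL diet (adjusted p = 0.0190). *Mtf1*, which encodes MTF-1, fell by 0.18 in *WT* mice (adjusted p = 0.0494), and the MTF-1 target *Slc30a1*, a zinc exporter, was called in none of the 12 comparisons. The part of the acute-phase response, neutrophils and macrophages in the metallothionein differences was not tested.

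*Nfe2l2* itself changed little on its main probe. Single mice ranged from 11.08 to 12.10 and the group medians from 11.44 in *WT* CTRL to 11.76 in *Pparα*-/- HFD mice. The HFD differences of *WT*, *Pparα* hep-/- and *Pparα*-/- mice were 0.12 ± 0.12, 0.09 ± 0.10 and 0.07 ± 0.11, and no comparison of its main probe was called. Within the second wash batch alone, *Nfe2l2* in *Pparα*-/- mice exceeded the *WT* signal on the CTRL diet by 0.57 ± 0.14 (adjusted p = 0.00776). The upper bounds of the 95% intervals of these 3 responses were 0.37, 0.29 and 0.28. On a second probe (A_55_P2720430) *Nfe2l2* in *Pparα* hep-/- CTRL mice exceeded the *WT* CTRL signal by 0.60 ± 0.18 (adjusted p = 0.0104), without overlap, from 9.78 to 10.24 against 9.14 to 9.77, as did 1.31% of all probes. The main probe gave 0.16 ± 0.12 there (adjusted p = 0.374), so the probes disagreed. With the mean of both probes, *Nfe2l2* was called higher than in *WT* mice in both mutants on the CTRL diet. The difference was 0.38 ± 0.12 in *Pparα* hep-/- (adjusted p = 0.0176) and 0.33 ± 0.13 in *Pparα*-/- mice (adjusted p = 0.0367). Nrf2 is controlled largely through its protein, which these arrays do not measure.

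Of 11 genes that regulate Nrf2 or compete with it, 1 rose and 1 fell with the HFD in *WT*, 2 rose and 3 fell in *Pparα* hep-/-, and 4 rose and 2 fell in *Pparα*-/- mice. *Keap1* was called in none of the 12 comparisons. *Sqstm1*, the autophagy receptor p62 that captures Keap1, rose by 0.33 ± 0.09 in *Pparα* hep-/- (adjusted p = 0.0103) and 0.49 ± 0.10 in *Pparα*-/- mice (adjusted p = 2.72e-04). *Maff*, a small Maf partner, rose by 0.68 ± 0.20 in *Pparα*-/- mice (adjusted p = 0.00849). *Bach1*, a repressor at antioxidant response elements and of *Hmox1*, fell by 0.43 with the HFD in *WT* mice (adjusted p = 0.00755) and was lower in *Pparα* hep-/- than in *WT* mice on the CTRL diet, by -0.53 ± 0.11 (adjusted p = 5.24e-04). *Nfe2l1*, the related factor Nrf1, rose with the HFD in all 3 genotypes, by 0.27, 0.26 and 0.32, and was lower than in *WT* mice in both mutants on both diets, by -0.56 to -0.70.

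**Figure D5:**
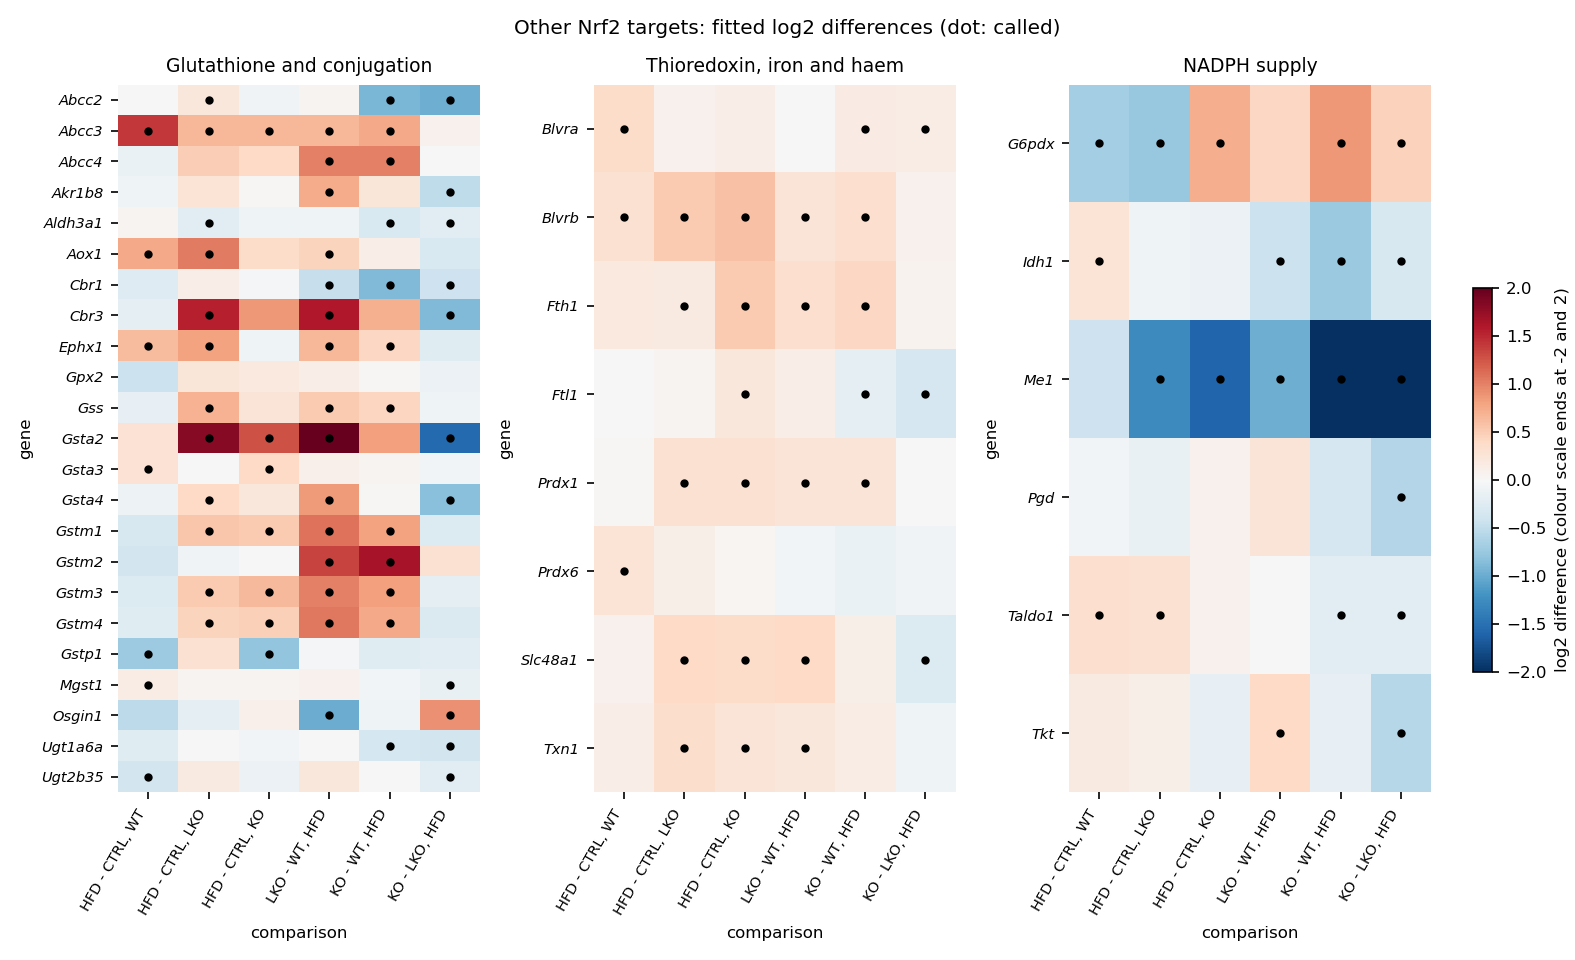
Fitted log2 differences (colour, scale ending at -2 and 2) of 23 genes of glutathione and conjugation, 8 of thioredoxin, iron and haem and 6 of NADPH supply (rows) in the diet and genotype comparisons (columns). A dot marks an adjusted p of 0.05 or below. In *Pparα* hep-/- mice on the HFD, 13 of the 23 glutathione and conjugation genes are higher and 2 lower than in *WT* mice.

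Other known Nrf2 targets were read from 3 lists with 37 tested genes. In all, 48 of the 111 gene-by-genotype HFD comparisons were called, against the 18.7%, 20.2% and 24.8% of all probes. Of 23 genes of glutathione and conjugation, 5 rose and 2 fell with the HFD in *WT*, 11 rose and 1 fell in *Pparα* hep-/-, and 6 rose and 1 fell in *Pparα*-/- mice. *Gsta2*, a glutathione transferase, rose by 1.82 ± 0.39 in *Pparα* hep-/- (3.53-fold, adjusted p = 8.19e-04) and 1.27 ± 0.41 in *Pparα*-/- mice (2.41-fold, adjusted p = 0.0181). *Cbr3*, a carbonyl reductase, rose by 1.55 ± 0.34 in *Pparα* hep-/- mice (adjusted p = 0.00105), where its response exceeded that of *WT* mice by 1.75 ± 0.53 (adjusted p = 0.0265). The largest increase in *WT* mice was that of *Abcc3*, an exporter of conjugates, at 1.41 ± 0.25 (2.66-fold, adjusted p = 7.15e-05). *Gstp1* fell by 0.73 in *WT* (adjusted p = 0.0190) and by 0.79 in *Pparα*-/- mice (adjusted p = 0.00355). Glutathione transferases have near-identical copies, and which copy these probes read was not tested.

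Between genotypes on the HFD the same list of 23 genes held 13 higher and 2 lower in *Pparα* hep-/- than in *WT* mice, and 8 higher and 4 lower in *Pparα*-/- than in *WT* mice, where 26.7% and 45.7% of all probes were called. *Gsta2* was higher by 2.38 ± 0.40 in *Pparα* hep-/- than in *WT* mice (5.20-fold, adjusted p = 1.88e-05) while *Pparα*-/- mice differed from *Pparα* hep-/- mice by -1.56 ± 0.38 (adjusted p = 0.00107). *Gstm2* was higher than in *WT* mice in both mutants, by 1.35 ± 0.17 and 1.65 ± 0.17. In the direct comparison, where 30.6% of all probes were called, 1 was higher and 10 were lower in *Pparα*-/- than in *Pparα* hep-/- mice. For the exporter *Abcc2*, *Pparα*-/- mice differed from *Pparα* hep-/- mice by -0.97 ± 0.06 (adjusted p = 1.26e-18). HFD responses of *Pparα* hep-/- mice exceeded those of *WT* mice for 6 of 23 genes, and for 3 of 23 in *Pparα*-/- mice, with 1 lower, where 10.4% and 14.3% of all probes were called.

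Of 8 genes of thioredoxin, iron and haem, 3, 5 and 6 rose with the HFD in *WT*, *Pparα* hep-/- and *Pparα*-/- mice, and 0 fell. *Blvrb*, a biliverdin reductase that acts after haem oxygenase, rose in all 3, by 0.31 ± 0.10, 0.52 ± 0.08 and 0.59 ± 0.09. *Fth1*, the ferritin heavy chain, rose by 0.53 ± 0.07 in *Pparα*-/- mice (adjusted p = 4.64e-07). *Prdx1*, the cytosolic peroxiredoxin that sulfiredoxin repairs, had a response that exceeded that of *WT* mice by 0.29 ± 0.08 in *Pparα* hep-/- (adjusted p = 0.0213) and by 0.28 ± 0.08 in *Pparα*-/- mice (adjusted p = 0.0202). The haem transporter *Slc48a1* rose by 0.40 ± 0.09 in *Pparα* hep-/- (adjusted p = 0.00214) and by 0.36 ± 0.10 in *Pparα*-/- mice (adjusted p = 0.00701).

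Genes that supply NADPH, the electron source of these reductases, did not rise as a group. Of 6 tested, 2 rose and 1 fell with the HFD in *WT*, 1 rose and 2 fell in *Pparα* hep-/-, and 1 rose and 1 fell in *Pparα*-/- mice. *Me1*, malic enzyme, a PPARα target as well, fell by 1.28 in *Pparα* hep-/- (adjusted p = 0.00840) and by 1.58 in *Pparα*-/- mice (adjusted p = 0.00168), and was lower in *Pparα*-/- than in *WT* mice on the HFD by -3.04 ± 0.37 (adjusted p = 3.23e-09). *G6pdx*, glucose-6-phosphate dehydrogenase, fell by 0.68 in *WT* mice (adjusted p = 0.00770). In *Pparα* hep-/- mice it fell by 0.76 (adjusted p = 7.12e-04), but it rose by 0.73 ± 0.17 in *Pparα*-/- mice (adjusted p = 0.00133). This *Pparα*-/- response exceeded the *WT* response by 1.41 ± 0.25 (adjusted p = 1.98e-04) and the *Pparα* hep-/- response by 1.48 ± 0.23 (adjusted p = 1.21e-04).

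The members fell into sets that varied together from mouse to mouse. After removal of the wash batch mean, the correlation over 48 mice was 0.863 between *Nqo1* and *Srxn1*, 0.839 between *Srxn1* and *Gsr*, and 0.713 between *Nqo1* and *Gsr*, and within groups it was 0.843, 0.855 and 0.742. *Gclm* stood apart from these, with correlations to the other members from -0.0453 to 0.28. Among 17468 other genes, those most like *Srxn1* were *Cstb* (0.932), *Cbr3* (0.927) and *Slc48a1* (0.915), and those most like *Nqo1* were *Cstb* (0.901), *Gm10639* (0.872) and *Ubd* (0.867). Those most like *Hmox1* were *Spic* (0.827), *Treml4* (0.809) and *Dok2* (0.791). For *Mt2* they were *Pip5k1a* (0.977), *Lcn2* (0.81) and *Ctcfl* (0.791). Of the other 2 tested *Pip5k1a* probes, 1 had a correlation of -0.373 with *Mt2* and 1 of -0.00258, so the probes of that name disagreed and the cause was not tested. All of these correlations are descriptions over the same 48 arrays, which share group and array quality. Every array counts equally in them, also *WT* CTRL replicate 6 and *Pparα* hep-/- CTRL replicate 1. Correlations without these mice were not computed.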

How the data were processed

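Liver RNA of 48 mice was hybridised to 1-colour Agilent arrays, 1 array per mouse and 8 mice per group. The authors deposited Feature Extraction 10.10.1.1 output, and the spot intensities used here are median pixel intensities, per the file headers, without background subtraction. The deposited log2 values of the authors, filtered, corrected for the wash bath and quantile normalized, served as an alternative. Probe positions in the files are on mm9.

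Intensities were log2 transformed, outlier spots dropped and spots of a probe averaged. A probe was kept where, in 1 group or more, 4 of 8 arrays or more were well above background, and kept probes were quantile normalized. limma 3.58.1 in R 4.3.3 (data.table, version 1.17.8) was fitted with group means, array weights, as the study used, and a wash batch term, where the authors had instead corrected the values. The p-values were adjusted by Benjamini-Hochberg within each of 12 contrasts, and 95% intervals are estimate ± 1.96 SE. The code was tested on simulated data. In place of a read depth, mouse numbers and signal over background (median intensity 56 to 91 against 20 to 36) limit precision.

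The 10 genes, the gene lists, the markers and the tests were chosen with earlier results of these data known. A gene is represented by its brightest tested probe, all 10 genes are named, and of each list the genes named are those called with the 3 largest increases or decreases in a contrast. *Keap1*, *Slc30a1* and *Alb* fall outside this rule and were chosen after their values were seen. Of the lists, *Slc7a11* and *Mt4* were not bright enough to be tested and *Gsta1* was not found by name. Alternatives changed the weights, wash term, background correction, scaling, filter, probe summary and values used, or left out mice. Those leaving out 2 low-weight mice together were added after the data had been seen.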

Additional observations from a re-analysis of the deposited data

Results flagged for a closer look

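Among 60 groups of 8 mice (10 genes in 6 groups), 5 had a lowest or highest mouse set off from the nearest other by more of the group's range than Dixon's 95% limit for 8 values, where chance alone sets off about 1 in 20 groups. In *WT* CTRL mice, replicate 6 was set off upward for *Srxn1* (14.77, next 12.67) and for *Gsr* (13.33, next 12.52). For *Gclm*, *WT* HFD replicate 8 was set off downward (13.16, next 13.45) and *Pparα*-/- HFD replicate 6 upward (14.13, next 13.93). For *Gsr*, *Pparα* hep-/- HFD replicate 3 was set off downward (12.34, next 12.51).

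The HFD response of *Txnrd1* differed between genotypes by the interaction test of limma, by 0.37 ± 0.09 between *Pparα* hep-/- and *WT* mice (adjusted p = 0.00717) and by 0.35 ± 0.09 between *Pparα*-/- and *WT* mice (adjusted p = 0.00794). All 8 HFD mice of each mutant lay above their CTRL mean, and 7 of 8 *WT* HFD mice lay below theirs, or 6 of 8 when *WT* CTRL replicate 6 was left out of that mean.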

How the results depend on the processing

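With equal array weights, 1 of 30 diet, 6 of 60 genotype and 1 of 30 response comparisons were called, against 15, 19 and 2, and 20 of 111 on other Nrf2 targets, against 48. Of these 8 member calls, 7 were among the 36, and 1 was gained, a lower *Txnrd1* in *Pparα*-/- than in *WT* mice on the CTRL diet (-0.24), also called with the processed signal and with median centring. Without the filter on dim probes the diet and genotype counts were 7 and 9. Within wash batch 1 the 4 counts were 2, 5, 0 and 21, and within wash batch 2 they were 1, 11, 0 and 19, with 3 to 5 mice a group and with 5 and 2 response differences at an unadjusted p under 0.05 by limma. With equal weights and without *WT* CTRL replicate 6 and *Pparα* hep-/- CTRL replicate 1, 9 genotype calls were made, and with equal weights and without *WT* HFD replicates 2 and 6 the 4 counts were 1, 11, 1 and 25. Leaving out each mouse in turn gave 12 to 16, 15 to 25, 2 to 3 and 42 to 52. The *Txnrd1* response differences held in all of these single omissions, and 18 of the 36 member calls held in all of them.

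Of the 36 member calls, 36 were kept with normexp correction and with the stricter filter, 34 with the authors' values and with the mean of a gene's probes, 31 with median centring or slide as a block, 30 without the wash term and 28 with the processed signal at the 75th percentile. No call changed sign under any alternative run. Same-numbered mice of different groups did not deviate together in the median (correlation 0.0208 over 120 pairs, from -0.44 to 0.69). The median thus showed no pairing by number, but it cannot exclude shared handling of single pairs. With a replicate block the counts were 13, 17, 2 and 45, and 31 of the 36 calls were kept. The cause of the lost calls was not tested.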

Other observations

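Enzymes that remove peroxide and superoxide without being in the lists of Nrf2 targets were read as well. Of 19, 7 rose and 1 fell in *WT*, 6 rose and 3 fell in *Pparα* hep-/-, and 8 rose and 1 fell in *Pparα*-/- mice, where 18.7%, 20.2% and 24.8% of all probes were called. *Sod2*, mitochondrial superoxide dismutase, rose by 0.51 ± 0.10 in *WT* mice (adjusted p = 3.32e-04). Responses differed from the *WT* response by -0.71 ± 0.14 for *Pparα*-/- (adjusted p = 4.38e-04) and -0.54 ± 0.13 for *Pparα* hep-/- mice (adjusted p = 0.00746). The glutathione peroxidase genes *Gpx3* and *Gpx4* rose in *Pparα* hep-/- mice by 0.72 ± 0.19 and 0.52 ± 0.11, and in *Pparα*-/- mice by 0.65 ± 0.20 and 0.61 ± 0.11. *Sod3*, the extracellular dismutase, was 1.51 ± 0.14 above the *WT* signal in *Pparα*-/- mice on the HFD (adjusted p = 6.40e-12). *Txnip*, which binds and inhibits thioredoxin, rose in both mutants, by 0.64 ± 0.19 (hep-/-, adjusted p = 0.0122) and 0.87 ± 0.20 (*Pparα*-/-, adjusted p = 0.00108).

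Of 9 genes of the integrated stress response, 1 fell in *WT*, 4 rose in *Pparα* hep-/-, and 3 rose and 1 fell in *Pparα*-/- mice with the HFD. *Atf3*, a stress-induced transcription factor, rose by 1.31 ± 0.28 and 1.54 ± 0.29 in *Pparα* hep-/- and *Pparα*-/- mice, and its response in *Pparα*-/- mice exceeded that of *WT* mice by 1.57 ± 0.44 (adjusted p = 0.0125). From the separate list of glucocorticoid-responsive genes, the cyclin-dependent kinase inhibitor *Cdkn1a* rose with the HFD by 1.82 ± 0.46 (adjusted p = 0.00398) in *Pparα* hep-/- mice. The *Pparα*-/- response of *Cdkn1a* differed from that by -3.00 ± 0.67 (adjusted p = 0.00652).

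Of 6 neutrophil markers, 1 rose with the HFD in *Pparα* hep-/- and 3 in *Pparα*-/- mice, and their mean was highest in *WT* HFD replicate 2 (10.91). Of 5 endothelial markers, 2 rose in *Pparα* hep-/- and 2 in *Pparα*-/- mice. Of 5 cholangiocyte markers 1 rose in *Pparα* hep-/- mice, and of 4 red blood cell markers 1 fell in *Pparα*-/- mice. Of 6 hepatocyte markers, 1 rose and 1 fell in *WT*, 1 fell in *Pparα* hep-/-, and 1 rose and 1 fell in *Pparα*-/- mice.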
